A study of Mus musculus with 8 samples.

Results

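The pyruvate dehydrogenase complex of mitochondria, the kinases that switch it off and the phosphatases that switch it on again were followed across 8 arrays of mouse small intestine. The members were the 10 genes Pdk1, Pdk2, Pdk3, Pdk4, Pdp1, Pdp2, Pdha1, Pdhb, Dlat and Pdhx, chosen by name as the kinases, the phosphatases and the core subunits of the complex. Every non-control probe whose transcript accession belongs to one of these genes was taken, which gave 14 of 39429 probes and 10 of the 21307 genes tested. All 10 tested probes were well above background on all 8 arrays by the scanner's own call.

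The mice were C57BL/6J Min/+, a strain with a truncated copy of the tumour suppressor gene Apc that develops intestinal adenomas, and every group carried that mutation. The 4 groups, of 2 arrays each, were Western male, Western female, Control male and Control female. The Western diet was an AIN-93G formula changed to be rich in fat and poor in fibre, vitamin D, calcium and folate, with milk supplying 66.4% of its fat and oils of rapeseed and sunflower 33.6%. The control diet was unmodified AIN-93G. Per the labels, feeding lasted 18 months (an unusually long time for this strain, and unchecked), and each array held total RNA from 1 to 3 mice. The age of the mice and the share of adenoma in the tissue are not given in the sources used here. Whether both arrays of a group came from different mice is not stated in the labels, and p-values thus measure an array-to-array spread that may be technical.

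Pyruvate dehydrogenase turns pyruvate, the end product of glycolysis, into acetyl-CoA, the fuel of the citric acid cycle and the building block of fatty acids. The kinases encoded by Pdk1 to Pdk4 phosphorylate the alpha subunit (Pdha1) and stop this step, and the phosphatases encoded by Pdp1 and Pdp2 remove the phosphate and restart it. Pdk4 is known as the kinase that fasting and fatty acids raise in muscle, heart and liver, through PPAR receptors among other regulators, and it spares glucose when fat is burned. The series title names PDK4, so this gene is not independent of the study's own results, and none of the values below measure the protein, its phosphorylation or the flux through the complex.

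The 250 bases before the RefSeq start of each kinase gene (GRCm38.p6) are shown because the kinases share their substrate and differed in their diet values. The Pdk4 window lies on the minus strand at chr6:5496279-5496528, that of Pdk1 on the plus strand at chr2:71872974-71873223, that of Pdk2 on the minus strand at chr11:95041372-95041621 and that of Pdk3 on the minus strand at chrX:93832151-93832400. Each runs 5′ to 3′ and ends at the base before the transcription start, and capitals mark the motifs found on either strand.
Pdk4: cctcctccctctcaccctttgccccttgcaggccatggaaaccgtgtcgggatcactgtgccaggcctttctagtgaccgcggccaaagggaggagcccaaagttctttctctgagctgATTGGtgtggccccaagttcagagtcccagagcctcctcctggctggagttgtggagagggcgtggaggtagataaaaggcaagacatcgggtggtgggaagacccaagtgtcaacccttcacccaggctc
Pdk1: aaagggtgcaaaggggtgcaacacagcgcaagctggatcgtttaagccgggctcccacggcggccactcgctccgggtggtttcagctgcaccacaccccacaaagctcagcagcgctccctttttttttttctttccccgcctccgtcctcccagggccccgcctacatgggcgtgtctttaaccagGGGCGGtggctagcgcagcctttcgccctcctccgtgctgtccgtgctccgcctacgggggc
Pdk2: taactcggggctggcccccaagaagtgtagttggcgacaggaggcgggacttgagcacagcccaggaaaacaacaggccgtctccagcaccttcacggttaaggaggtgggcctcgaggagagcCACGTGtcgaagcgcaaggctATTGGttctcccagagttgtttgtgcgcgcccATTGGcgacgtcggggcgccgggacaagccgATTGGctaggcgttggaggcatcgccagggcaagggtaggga
Pdk3: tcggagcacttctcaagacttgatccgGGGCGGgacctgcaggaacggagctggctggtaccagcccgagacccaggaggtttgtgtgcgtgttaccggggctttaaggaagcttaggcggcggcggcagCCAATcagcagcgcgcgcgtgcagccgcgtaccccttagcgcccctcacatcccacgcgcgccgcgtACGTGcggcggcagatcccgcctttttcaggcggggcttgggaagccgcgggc

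The search covered both strands of these windows and of 32851 promoter windows of the same length. A match to ATTGG, an inverted CCAAT box, is held by 33.8% of all windows, and it was the 1 match in the Pdk4 window, at 131 bases before the start. The GC box GGGCGG, held by 32.7% of windows, matched in Pdk1 at 62 bases and in Pdk3 at 223 bases. Pdk2 held the E-box CACGTG at 126 bases (6.02% of windows) and ATTGG at 105, 73 and 42 bases. The core of a hypoxia response element, ACGTG (16.6% of windows), matched at 53 bases in Pdk3 and, inside the E-box, in Pdk2. Pdk3 also matched ATTGG on the opposite strand at 120 bases, which is a CCAAT box in direct orientation. The 4 windows had no match to the nuclear receptor half-site AGGTCA (14.0% of windows), to the HNF4 site CAAAGTCCA (0.384% of windows), to the forkhead site TGTTTAC (3.17% of windows) or to the TATA box spelled TATAAA (12.4% of windows). The Pdk4 window had 6 CpG dinucleotides, the median of all windows, whereas those of Pdk1 and Pdk2 had 19 each and that of Pdk3 had 29, more than 93.2% of windows. The GC content was 58.8% for Pdk4, 64.0% for Pdk1, 62.4% for Pdk2 and 67.6% for Pdk3, with a median over all windows of 52.4%. Pdk1 and Pdk2 each had a further window, not at the gene start and not shown, without a match to these motifs. That of Pdk1 had 2 CpG dinucleotides and 38.4% GC, and that of Pdk2 had 12 and 58.8%, so the contrast with Pdk4 depends on the window. The matches above are descriptions of the letters and were not tested for a role in the values below.

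Signals are given as log2 relative to the 75th percentile of the array, a value that ranged from 486 to 902 on the scanner's scale. Control female 2 had 75.6% of its probes well above background, against 55.1% to 61.9% on the other 7 arrays, and it also stood apart on the first principal component (43.4% of the variance, -146.4 against -1.6 to 33.2). The Y-linked transcripts Ddx3y, Eif2s3y and Uty were as abundant in the library labelled Control female 1 as in males. Ddx3y was at -0.46 there, against -1.04 to -0.67 on the 4 male arrays and -7.56 to -6.91 on the other 3 female arrays. Y-linked Kdm5d was well above background on 1 array and Xist, which marks X inactivation, on 0, so neither could check the labels. The library labelled Control female 1, whose deposited file carries a tag of the Western diet in its name, was kept as labelled. The female differences printed for single members are also given without each of these 2 Control female arrays. All 9 enterocyte markers, such as Vil1 and Fabp2, were well above background on all 8 arrays. Their summed signal, as a multiple of the 75th percentile, was 1760 to 2530 on the Western arrays and 2070 to 2540 on the Control arrays. Sis, 1 of the 9, differed by -1.06 between the diets, without overlap. The other enterocyte markers differed by -0.15 (Fabp2) to 0.04 (Apoa4 and Lgals4).

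Pdk4, the kinase that restrains glucose oxidation when fat is the fuel, had more signal on the Western diet in the groups labelled male and in those labelled female. It measured -0.28 and 0.89 on the Western male arrays and 0.12 and 1.5 on the Western female arrays, against -2.63 and -3.96 on the Control male arrays and -1.77 and -2.35 on the Control female arrays. Every Western array lay above every Control array, and the lowest Western and the highest Control value (-0.28 and -1.77) did not meet. The means were 0.56 ± 0.79 on the Western diet and -2.68 ± 0.93 on the control diet (SD, n = 4 arrays each). The difference averaged over the sexes was 3.23 ± 0.49 SE on the log2 scale, a 9.41-fold higher signal, with a 95% confidence interval of 2.04 to 4.43. By limma across all genes the unadjusted p was 0.000575 and the Benjamini-Hochberg adjusted p was 0.407, so Pdk4 did not pass the threshold of 0.05. In bulk tissue, fewer cells of a type and less RNA per cell cannot be told apart.

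**Figure D1:**
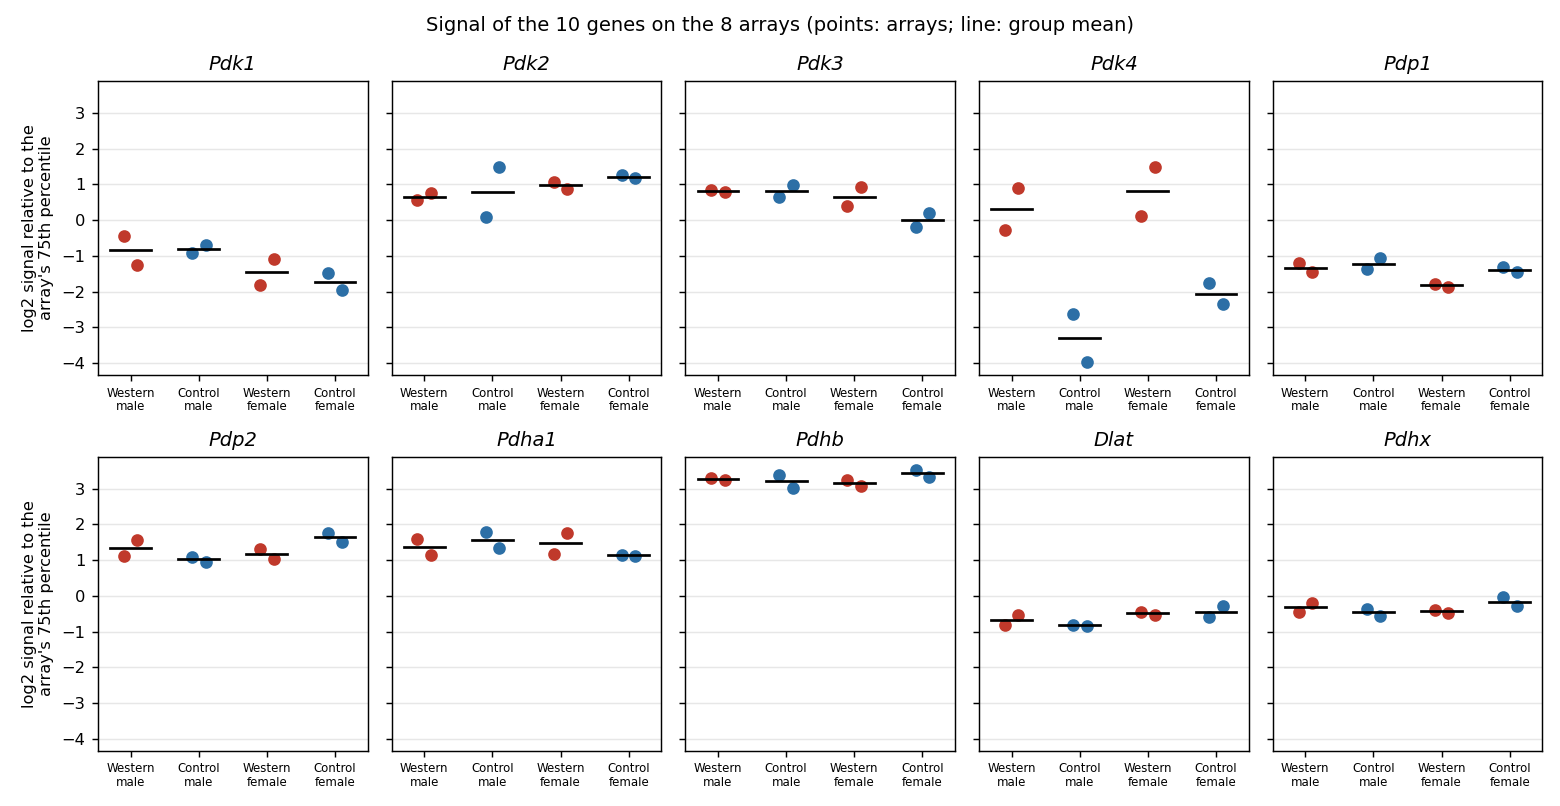
Log2 signal of the tested probe of each of the 10 genes relative to the 75th percentile of its array (y axis), by group of diet and sex (x axis); points are arrays and lines are group means. The 4 Western values of Pdk4 lie between -0.28 and 1.5 and its 4 Control values between -3.96 and -1.77, while the Western and Control values of the other 9 genes overlap. Levels of different panels come from different probes and are not comparable.

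Of the 10 members 0 passed the adjusted threshold for diet, as did 0 of all 21307 genes (0.0%), with a smallest adjusted p of 0.125. With an unadjusted p under 0.05 there was 1 member, Pdk4, against 910 genes (4.27%). All Western arrays lay above all Control arrays for 1 member, Pdk4, against 184 of 21290 genes measured on every array (0.864%). The opposite separation held for 0 members, against 2.29% of genes.

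An exact two-sided permutation test over the arrays gave p = 0.0286 for Pdk4, the smallest value that 70 assignments of 4 against 4 allow. These assignments ignored sex. A permutation within sex, which allows fewer assignments and so a larger smallest p, was not run. Since every Western value lay above every Control value, leaving out any of the 8 arrays had to give the smallest p that 35 assignments allow. That p is also 0.0286, so it adds no support. The plain differences of means were then 2.81 to 3.54. With all 8 arrays p = 0.0286 by this permutation test was also reached after quantile normalization (3.36) and after scaling to the median of each array (3.63). The same held after another background correction, normexp (2.39). These repeats reuse the same 8 arrays and show only that the diets stayed apart under each setting, so they add no support either. Since the title names the gene, these p-values describe the arrays and are not independent evidence.

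The difference in Pdk4 varied between slides. Slide 1, which held replicate 1 of all 4 groups, gave 2.12 (2.35 in males and 1.89 in females). Its female value used the library labelled Control female 1. On slide 3 females alone could be compared, as Western female 2 (1.5) against Control female 2 (-2.35), which gave 3.85. Within-slide values, here and for other genes below, thus compare single arrays within a sex. In females they rest on the Control female arrays described above. With scan day as a block the difference was 3.19 (adjusted p = 0.801 by limma). Leaving out each array in turn gave 2.89 to 3.58, with 3.09 without Control female 2 and 3.38 without the library labelled Control female 1. Every group kept 1 place on its slides, so place on the slide and group cannot be told apart.

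**Figure D2:**
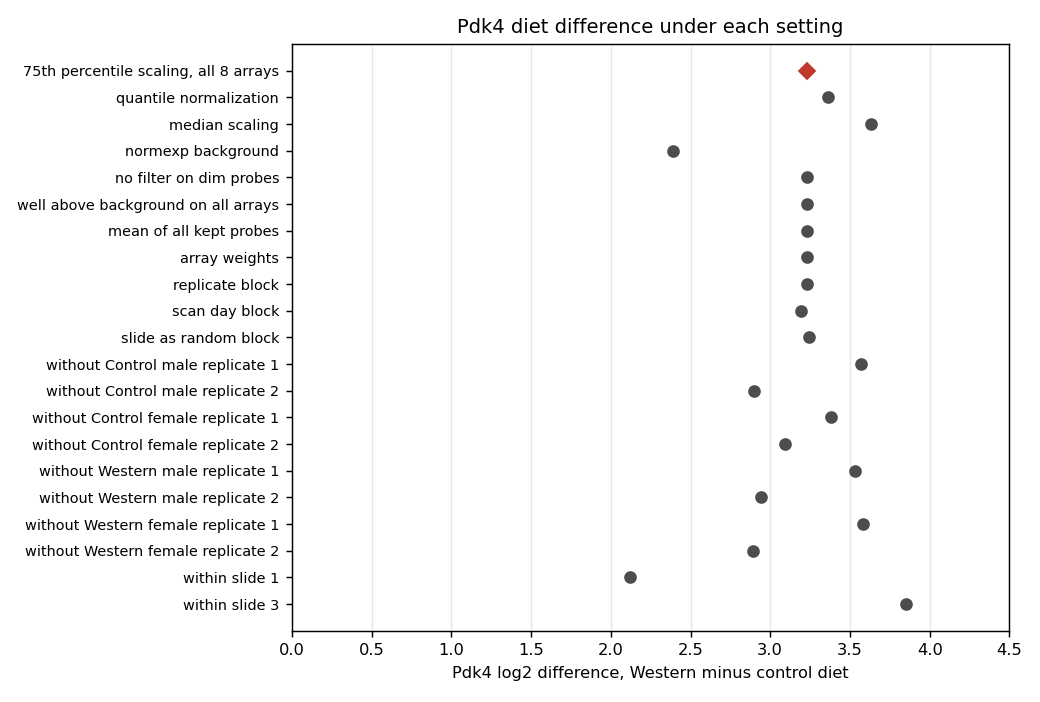
Log2 difference of Pdk4 between Western and control diet (x axis) under each processing setting (y axis); the diamond is the value with 75th percentile scaling on all 8 arrays and circles are the alternatives. The difference stays above 0 in all 20 alternatives, from 2.12 within slide 1 to 3.85 within slide 3.

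Markers of other cell types varied between libraries beside Pdk4. The 7 fat cell markers summed to 7.26 to 37.5 on the Western arrays and 6.15 to 10.7 on the Control arrays, with 3 of 7 well above background on all 8 arrays and Lep on none. The highest sum belonged to Western female 2, the array with the highest Pdk4 value, and the difference in Pdk4 was 2.89 without it. Western female 2 had log2 signals of 4.23 for Fabp4 and 3.29 for Cfd, above 2.54 for Cidec. On the other arrays Cidec lay at 2.02 or higher, Fabp4 at 0.86 or lower and the other fat markers at -2.52 or lower. The fat cell sums of those arrays thus reflect mostly Cidec. The 5 red blood cell markers on the array summed to 53.3 to 150 on the Western arrays and 16.4 to 73.1 on the Control arrays, with 5 of 5 well above background on all 8 arrays. The 7 smooth muscle markers, 4 of them well above background on all 8 arrays, summed to 8.88 to 20.6 on the Western and 6.14 to 49.1 on the Control arrays, with the highest sum on Control male 1, without which the difference was 3.57. For skeletal and heart muscle, in which Pdk4 is abundant, the 7 markers summed to 0.271 to 0.573 on the Western arrays and 0.316 to 1.41 on the Control arrays, with 2 of 7 well above background on all 8 arrays and Myh1 and Mylpf on none. Pancreatic acinar markers summed to 0.236 to 0.29 on the Western and 0.267 to 0.632 on the Control arrays (2 of 7 well above background on all 8 arrays, Pnlip on none). Liver markers summed to 55.0 to 63.5 on the Western and 50.9 to 63.0 on the Control arrays (3 of 5 on all 8 arrays, Alb on none). On the log2 scale Apob lay at 4.73 to 5.65 and Serpina1a at 3.29 to 4.63, against -2.31 or lower for Ttr, Fgb and Alb. This sum thus reflects Apob and Serpina1a. The part of fat, blood and smooth muscle RNA in the Pdk4 values was not tested beyond leaving out these arrays.

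Among all genes tested, Pdk4 had the highest diet difference, at rank 1 of 21307, and also rank 1 of the 14826 genes with a symbol. The next highest difference was 3.16 for a probe without a symbol and 2.66 among genes with one. By p it ranked 29 of all genes and 9 of those with a symbol. Differences above 2 were found for 11 genes and below -2 for 88, and the lowest was -3.50. Over 18 alternatives fitted across all genes the rank of Pdk4 by difference lay between 1 and 4.

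**Figure D3:**
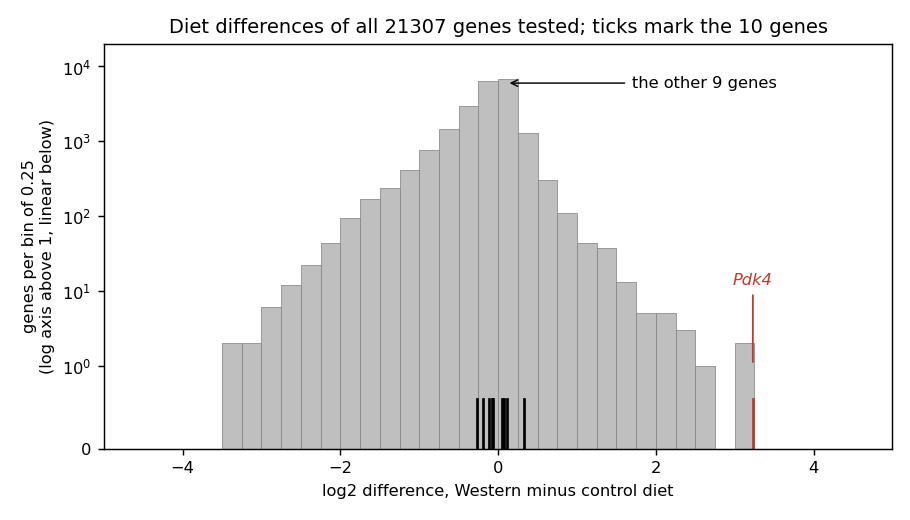
Number of genes (y axis, log above 1 and linear below) in bins of the log2 difference between Western and control diet (x axis, bins of 0.25) for all 21307 genes tested; ticks on the x axis mark the 10 genes. Pdk4, at 3.23, sits in the highest filled bin, while the other 9 genes lie between -0.27 and 0.33, near the median of -0.058.

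The other 3 kinases showed no such separation. Pdk1, a kinase known as a target of hypoxia-inducible factor, measured -0.44 and -1.25 on the Western male and -1.82 and -1.10 on the Western female arrays, against -0.91 and -0.69 on the Control male and -1.49 and -1.96 on the Control female arrays. Its values overlapped between the diets, and the difference was 0.11 ± 0.27 SE (95% confidence interval -0.56 to 0.78). On each diet the male arrays averaged higher than the female arrays. The means were -1.46 ± 0.50 in Western females and -0.84 ± 0.57 in Western males (SD, n = 2 each), with overlapping values. Their difference of -0.62 ± 0.39 SE did not pass. On the control diet they were -1.72 ± 0.33 in females and -0.80 ± 0.15 in males. That comparison rests on the library with Y-linked transcripts and the array that stood apart.

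Pdk2, the most widely expressed of the kinases, measured 0.55 and 0.77 on the Western male and 1.08 and 0.88 on the Western female arrays, against 0.10 and 1.5 on the Control male and 1.26 and 1.19 on the Control female arrays. The Control male pair spanned all other values, and the difference was -0.19 ± 0.32 SE (-0.97 to 0.58). It was 0.16 without Control male 2 and -0.55 without Control male 1, so its direction depended on that pair.

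Pdk3, an X-linked kinase gene, measured 0.84 and 0.79 on the Western male and 0.40 and 0.93 on the Western female arrays, against 0.65 and 0.98 on the Control male and -0.18 and 0.20 on the Control female arrays. Its difference of 0.33 ± 0.20 SE (-0.15 to 0.80) was the next highest of the 10 genes, above that of 94.7% of all genes tested. In females it was 0.65 ± 0.28 SE (unadjusted p = 0.0556, adjusted p = 0.954 by limma), with the Western female arrays above the Control female arrays, and in males it was 0.00 ± 0.28 SE. The female difference was 0.46 without the library labelled Control female 1 and 0.84 without Control female 2. The diet difference in females minus that in males, 0.65 ± 0.39 SE, did not pass either (adjusted p = 1.0), and it was 0.46 and 0.84 without these arrays in the same order. Over the alternatives the diet difference of Pdk3 ranged from 0.19 to 0.73, and that of Pdk1 from -0.09 to 0.85.

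Of the phosphatases, Pdp1, the calcium-stimulated form, had lower mean signal on the Western diet with each of its 3 probes. The tested probe measured -1.21 and -1.44 on the Western male and -1.78 and -1.86 on the Western female arrays, against -1.37 and -1.07 on the Control male and -1.31 and -1.46 on the Control female arrays. Its difference was -0.27 ± 0.15 SE (-0.64 to 0.10, adjusted p = 0.995 by limma), and the other 2 probes gave -0.25 and -0.20. The female arrays separated, with both Western below both Control arrays on all 3 probes, and the male arrays overlapped on all 3. In females the tested probe differed by -0.43 ± 0.21 SE, with -0.36 without the library labelled Control female 1 and -0.51 without Control female 2. The 3 probes report on the same RNA and are not replicates.

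Pdp2, the form that calcium does not stimulate, measured 1.12 and 1.56 on the Western male and 1.32 and 1.02 on the Western female arrays, against 1.09 and 0.95 on the Control male and 1.77 and 1.51 on the Control female arrays. Averaged over the sexes the difference was -0.08 ± 0.18 SE (-0.51 to 0.36). In females it was -0.47 ± 0.25 SE (-0.34 without the library labelled Control female 1 and -0.60 without Control female 2) and in males 0.32 ± 0.25 SE, and the arrays did not overlap between the diets in either sex. Such a separation in opposite directions in the sexes was found for 1 of the 10 members and 1.71% of genes. The second probe of Pdp2 was well above background on 3 arrays and gave -0.38.

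The subunits of the complex itself overlapped between the diets. Pdha1, the alpha subunit that the kinases phosphorylate, measured 1.59 and 1.15 on the Western male and 1.18 and 1.76 on the Western female arrays, against 1.79 and 1.33 on the Control male and 1.14 and 1.11 on the Control female arrays. The difference was 0.08 ± 0.22 SE (-0.45 to 0.61). Pdhb, the beta subunit of the same enzyme, measured 3.29 and 3.25 on the Western male and 3.23 and 3.08 on the Western female arrays, against 3.39 and 3.03 on the Control male and 3.52 and 3.33 on the Control female arrays. Its difference was -0.11 ± 0.15 SE (-0.48 to 0.27), with -0.04 on a second probe.

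Dlat, the acetyltransferase at the core of the complex, had a difference of 0.05 ± 0.15 SE (-0.32 to 0.42), with values of -0.83 to -0.46 on the Western and -0.85 to -0.29 on the Control arrays. For Pdhx, which tethers the shared subunit Dld to that core, it was -0.07 ± 0.15 SE (-0.44 to 0.30), with -0.47 to -0.20 on the Western and -0.56 to -0.03 on the Control arrays. The intervals of the 4 subunits allow differences of up to 0.61 upward and 0.48 downward, all below the lower bound of 2.04 for Pdk4.

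**Figure D4:**
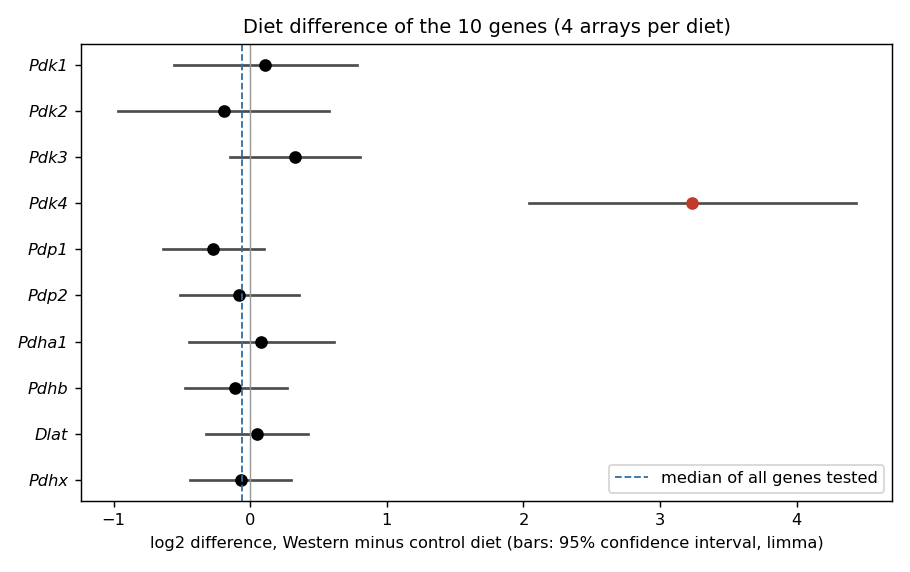
Log2 difference between Western and control diet (x axis) of each of the 10 genes (y axis), as points with 95% confidence intervals from limma (4 arrays per diet); the dashed line is the median of all genes tested. The interval of Pdk4, 2.04 to 4.43, lies above 0, while those of the other 9 genes include 0.

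As a list, 5 of the 10 members had higher mean signal on the Western diet (median difference -0.00852), and without Pdk4 4 of 9 (median -0.0675), beside 40.5% of all genes tested (median -0.0575). Correlations with Pdk4 over the 8 arrays, which share their scaling, ranged from -0.711 for Pdp1 to 0.358 for Dlat.

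Within the sexes Pdk4 was higher on the Western diet in each. In males the difference was 3.60 ± 0.69 SE (12.1-fold, 1.9 to 5.29, unadjusted p = 0.00201 and adjusted p = 1.0 by limma), and 0 of 21307 genes (0.0%) passed the threshold. In females it was 2.87 ± 0.69 SE (7.32-fold, 1.18 to 4.56, unadjusted p = 0.00602 and adjusted p = 0.94), and again 0.0% of genes passed. The diet difference in females minus that in males was -0.73 ± 0.98 SE (-3.12 to 1.67, adjusted p = 1.0), a comparison in which 0.0% of genes passed, so a larger difference in either sex was not shown. It was -0.44 without the library labelled Control female 1 and -1.02 without Control female 2. The value in males used neither Control female array and was the same, 3.60, with both left out. In females it was 2.58 without Control female 2, 3.16 without the library labelled Control female 1 and 2.18 to 3.56 over all arrays left out in turn. Each female value still used the library with Y-linked transcripts, the array that stood apart, or both.

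Between the sexes on the Western diet, Pdk4 averaged 0.81 ± 0.97 in females and 0.30 ± 0.83 in males (SD, n = 2 each), a difference of 0.51 ± 0.69 SE (-1.18 to 2.20). It became -0.08 without Western male 1 and -0.18 without Western female 2, and 0.0% of all genes passed in this comparison. Both Western female arrays lay above both Western male arrays for Pdk2 and Dlat (2 of 10, against 12.9% of genes) and below them for Pdp1 and Pdhb (2 of 10, against 12.7%). For Pdp1 the difference was -0.49 ± 0.21 SE (unadjusted p = 0.0606, adjusted p = 1.0 by limma).

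In females both Western arrays lay above both Control arrays for Pdk3, Pdk4 and Pdha1 (3 of 10, against 9.59% of genes) and below them for Pdk2, Pdp1, Pdp2, Pdhb and Pdhx (5 of 10, against 21.8%). In males they lay above for Pdk4 and Pdp2 (2 of 10, against 12.1%) and below for none of the 10 (13.0% of genes). The female counts rest on the Control female pair, which held the array that stood apart and the library with Y-linked transcripts. With 2 arrays a group, such separation is frequent, and 0 of these members passed the adjusted threshold.

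The genes around the complex were taken in 7 lists of 66 genes, of which 63 were measured and 0 passed the adjusted threshold. Of these, 35 had higher and 28 lower mean signal on the Western diet (median 0.0364, against -0.0575 over all genes tested). Dld, the dihydrolipoamide dehydrogenase that the complex shares with its sister enzymes, differed by 0.02 ± 0.14 SE, with 2.38 to 2.63 on the Western and 2.40 to 2.57 on the Control arrays. The regulatory subunit of the phosphatase, Pdpr, had no array with signal well above background.

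Pyruvate supply and carriers, 8 genes, had 3 higher and 5 lower members (median -0.201). Slc16a1, a carrier of lactate and pyruvate across the cell membrane, measured -3.78 to -3.64 on the Western and -3.58 to -2.65 on the Control arrays, a difference of -0.49 ± 0.20 SE. Pklr, the pyruvate kinase of liver and red cells, measured 0.18 to 0.31 on the Western and 0.37 to 0.79 on the Control arrays (-0.29 ± 0.14 SE). For these 2 of 8 all Western arrays lay below all Control arrays, beside 2.29% of all genes. Within slides 1 and 3 Slc16a1 differed by -0.39 and -1.10. The other named members overlapped, with -0.49 ± 0.28 SE for Pkm, the pyruvate kinase of most tissues (-0.05 within slide 1 and -1.28 within slide 3), and 0.10 ± 0.15 SE for Mpc2, a subunit of the mitochondrial pyruvate carrier.

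Other fates of pyruvate and acetyl-CoA, 10 genes, had 4 higher and 6 lower members (median -0.0687). Pck1, the cytosolic enzyme that commits oxaloacetate to glucose synthesis, measured 2.97 to 4.24 on the Western and 1.06 to 3.21 on the Control arrays (1.36 ± 0.61 SE, adjusted p = 0.995 by limma), with overlap, and the difference was 0.83 without Control male 1 and 1.9 without Control male 2. Acss1, the mitochondrial acetate-activating enzyme, differed by 0.53 ± 0.26 SE (0.33 without Control male 1 or Western male 2). Pcx, which carboxylates pyruvate to oxaloacetate, had -0.37 ± 0.27 SE (-0.14 without Control female 2) and Pck2, the mitochondrial counterpart of Pck1, had -0.43 ± 0.37 SE with 5 arrays well above background (-0.14 without Control female 2). Cofactor supply, the genes for thiamine pyrophosphate and lipoate, had 6 higher and 2 lower of 8 measured members (median 0.088), among them Slc19a2, a thiamine transporter (0.22 ± 0.19 SE), Lipt1, a lipoyl transferase (0.36 ± 0.31 SE), and Glrx5, a glutaredoxin of iron-sulphur cluster assembly (0.18 ± 0.13 SE).

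The list of sister dehydrogenases, which use the same chemistry on other keto acids, also held the kinase Bckdk and the phosphatase Ppm1k. It gave 2 higher members, Bckdk and Ppm1k, and 5 lower, all of them dehydrogenase complex genes, of 7 (median -0.085). Ogdh and Dlst, of the oxoglutarate dehydrogenase complex, differed by -0.21 ± 0.18 SE and -0.19 ± 0.16 SE. Bckdha, of the branched-chain complex, had -0.09 ± 0.19 SE and its phosphatase Ppm1k had 0.16 ± 0.17 SE. Bckdk, the kinase of that complex and a relative of the Pdk family, differed by 0.04 ± 0.15 SE. Bckdk was chosen after its value was seen.

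The 13 regulators of Pdk4 transcription had 6 higher and 7 lower members (median -0.0403). Klf15, a factor induced by fasting in liver and muscle, measured -1.94 to -1.25 on the Western arrays and -2.79, -2.91, -1.58 and -2.93 on the Control male 1, Control male 2, Control female 1 and Control female 2 arrays. The difference was 0.96 ± 0.36 SE (unadjusted p = 0.0375, adjusted p = 0.995 by limma), and the library labelled Control female 1 was the 1 Control array within the Western range. Without it the difference was 1.30, and without Control female 2 it was 0.62. Within slide 1 it was 0.25 and within slide 3 it was 1.69. Ppargc1a, a coactivator of PPAR receptors, had -0.92 ± 0.40 SE (-0.56 without Western male 2), with 0.14 to 1.60 on the Western and 1.07 to 2.14 on the Control arrays. Ppard, the PPAR receptor of most epithelia, had -0.31 ± 0.25 SE (-0.07 without Western female 2), and Foxo3, a forkhead factor well above background on 3 arrays, -0.54 ± 0.50 SE (0.00 without Control female 2).

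The PPAR targets, genes known to be driven by these receptors along with Pdk4, had 13 higher and 3 lower of 16 members (median 0.371, against -0.0575 over all genes tested), and 0 of 16 passed the adjusted threshold. Angptl4, which encodes a lipoprotein lipase inhibitor released from the cell, measured 3.15 to 4.16 on the Western and 1.98 to 2.75 on the Control arrays (1.14 ± 0.21 SE, adjusted p = 0.650 by limma), with 1.42 within slide 1 and 0.52 within slide 3. Vnn1, a pantetheinase of the enterocyte surface, measured 5.12 to 5.37 on the Western and 4.51 to 5.09 on the Control arrays (0.48 ± 0.16 SE). For these 2 of 16 all Western arrays lay above all Control arrays, beside 0.864% of all genes. Cd36, a fatty acid receptor, measured -0.77 to 1.21 on the Western and -2.13 to -0.07 on the Control arrays (1.35 ± 0.42 SE, with 1.72 within slide 1 and -0.08 within slide 3). Acadl, the long-chain acyl-CoA dehydrogenase, measured 1.89 to 2.05 on the Western arrays and 1.16, 0.85, 2.02 and 0.32 on the Control male 1, Control male 2, Control female 1 and Control female 2 arrays (0.88 ± 0.37 SE, with 0.46 without Control female 2 and 1.31 without the library labelled Control female 1). This list was chosen with earlier results known, and its count is a description of these arrays.

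**Figure D5:**
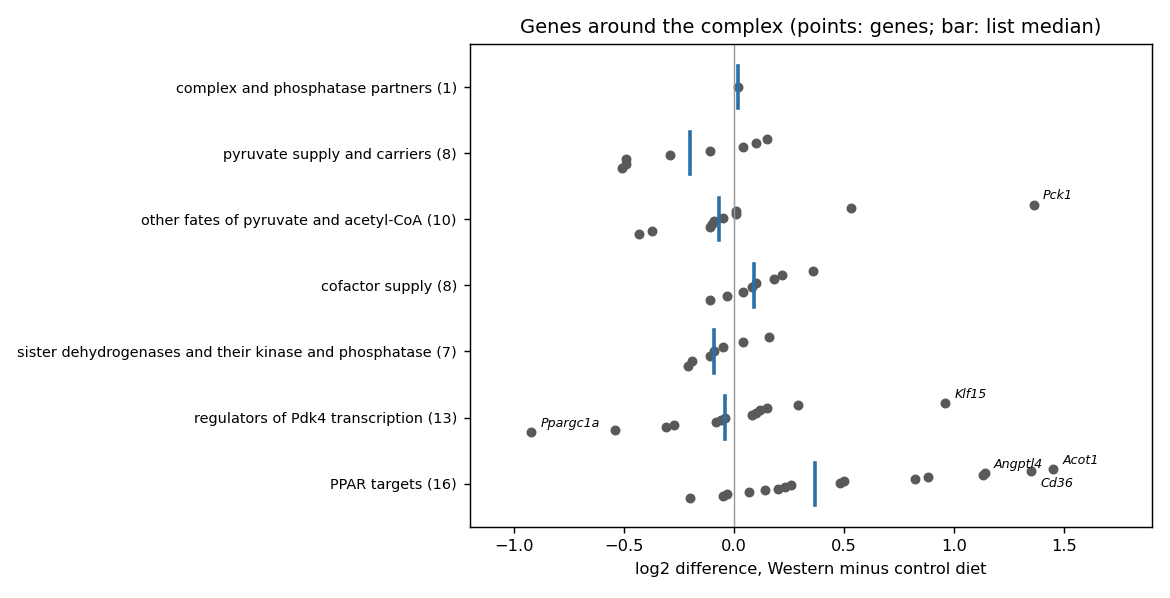
Log2 difference between Western and control diet (x axis) of 63 measured genes around the complex, by list (y axis, with the number of measured genes); points are genes and bars are list medians. The PPAR targets have a median of 0.371 with 13 of 16 genes above 0, while the medians of the other lists lie between -0.201 and 0.088.

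The genes whose pattern was most like that of Pdk4 were ranked among 1723 genes with a symbol, well above background on all 8 arrays and with an SD of at least 0.5. The 6 highest Pearson correlations over the 8 arrays belonged to Renbp (0.962), Ugdh (0.895), Ces1g (0.876), Klf15 (0.869), Scd1 (0.857) and Cyp2c55 (0.854), and the 4 lowest to Sis (-0.939), Alas1 (-0.925), Mgam (-0.890) and Timd2 (-0.889). All arrays share the diet contrast and the scaling, so these values describe likeness over 8 points. Renbp, the renin-binding protein that is also an epimerase of amino sugars, measured -1.47, 0.25, -0.96 and -0.09 on the Western and -3.05, -3.95, -1.72 and -3.41 on the Control arrays. It had a difference of 2.46 ± 0.57 SE (adjusted p = 0.995 by limma), and all its Western values lay above all Control values. Within slide 1 it differed by 1.17 and within slide 3 by 3.32. At the other end, Sis, the sucrase-isomaltase of the brush border, measured 6.60 to 6.96 on the Western and 7.64 to 7.94 on the Control arrays, which did not overlap. Mgam, the maltase-glucoamylase beside it, measured 2.74 to 3.84 on the Western and 3.92 to 4.98 on the Control arrays, without overlap. Renbp, Sis and Mgam were picked by their correlation with Pdk4, which separated the diets, so their separation is largely built into that choice. Of all genes measured on every array, 0.864% had all Western above all Control arrays and 2.29% had the opposite.

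Scd1, a desaturase of fatty acids, and Ces1g, a carboxylesterase, followed Pdk4 across arrays but not within slide 1, where they differed by -0.18 and -0.11, against 4.22 and 3.21 within slide 3. Pdk4 itself was higher within both slides. The library labelled Control female 1 had 1.44 for Scd1, -0.48 for Ces1g and 2.52 for Cyp2c55, above the other Control arrays in each, as it was for Pdk4 (-1.77).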

How the data were processed

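Total RNA of mouse small intestine was hybridised to 8 single-colour Cy3 arrays of Agilent design 026655. Per the file headers, Feature Extraction 10.7.3.1 made the deposited intensity values, and its background-subtracted processed signal was used here. No scaling between arrays is recorded there.

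On each array 1377 control spots and 94 to 216 outlier spots were dropped, and 399 probes with repeated spots were averaged. No spot was saturated. Values were log2 of the signal minus the array's 75th percentile, with no pseudocount. Accessions were named through RefSeq (GRCm38.p6), without versions, and 26412 of 39429 probes received a symbol (20017 symbols). The headers name an older build, so no probe coordinates are given. The filter kept 25737 probes, those well above background on 2 or more arrays, and the probe with the highest mean stood for its gene.

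In R 4.3.3 (with version 1.17.8 of data.table) limma 3.58.1 fitted differences as 4 group means over 8 arrays, with 4 residual and 2.01 prior degrees of freedom, and p-values were adjusted by Benjamini-Hochberg over 21307 genes with a threshold of 0.05. The 5 contrasts were diet, diet in males, diet in females, diet by sex, and sex on the Western diet. Single values were tested by exact permutation over arrays in Python 3.11.15 with numpy 2.4.6 and pandas 2.3.3. The fit was tested on simulated data. Alternatives were quantile or median scaling, normexp background correction with an offset of 50, other probe filters, the mean of a gene's probes, array weights, replicate, scan day and slide blocks, values within slides, and each array left out. Normexp used the median signal, since the files used here hold no mean signal. The text names all 10 genes, up to 4 of each list by smallest p (1 gene that this rule named is not reported here), and the 6 most and 4 least similar patterns to Pdk4. The members and lists were chosen with earlier results of these data known. The number of arrays limits the precision. RefSeq promoter windows matched 9 of the 10 genes.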

Additional observations from a re-analysis of the deposited data

Results flagged for a closer look

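Pdp2, a phosphatase that reactivates pyruvate dehydrogenase, differed in opposite directions in the sexes on every array. Both Western female arrays (1.32 and 1.02) lay below both Control female arrays (1.77 and 1.51), while both Western male arrays (1.12 and 1.56) lay above both Control male arrays (1.09 and 0.95). The diet difference in females minus that in males was -0.79 ± 0.35 SE (95% confidence interval -1.65 to 0.08, unadjusted p = 0.0677, adjusted p = 1.0 by limma). It was the only 1 of the 10 members with this pattern, which 364 of 21290 genes (1.71%) showed. The closest male values, 1.12 on the Western and 1.09 on the control diet, nearly met, and the second probe was too dim to compare. The value rests on the Control female pair. It was -0.66 ± 0.41 SE without the library labelled Control female 1, which carries Y-linked transcripts, and -0.92 ± 0.41 SE without Control female 2, which stood apart from the other arrays. A search for single arrays far from the rest of their diet, in 20 groups of 4 arrays, found 0.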

How the results depend on the processing

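The Pdk4 diet difference kept its direction in all 20 alternatives (2.12 to 3.85) and, in the 18 with a test, its side of the threshold in all but median scaling. Scaling to the array median, a signal of only 30.2 to 67.7, shifted the median of all genes to 0.342 and made the prior degrees of freedom infinite. It called 93 genes for diet, 46 in males, 97 in females, 42 for diet by sex and 36 for sex on the Western diet, against 0 in each, and gave Pdk4 3.63 (adjusted p = 1.98e-09), 3.74 in males (0.000134) and 3.52 in females (0.000635). Within slide 1 Pdk4 differed by 2.12, 2.35 in males and 1.89 in females, and within slide 3 by 3.85 in females. With a replicate block it was 3.23 (adjusted p = 0.63), and no call moved; same-numbered arrays correlated from -0.118 to 0.352 (0.352 between the diets in males, 0.182 in females), and the labels give the numbers no meaning, so they were not taken as pairs, although every replicate 1 lay on slide 1. Leaving out each array in turn gave 0 to 394 genes for diet in females (2 without Control female 2, 394 without the library labelled Control female 1), 0 to 2 for diet by sex (2 without the library labelled Control female 1), 0 to 2 for sex on the Western diet (2 without either Control female array) and 0 for diet and for diet in males. A lone array was then assumed to vary like the other groups. Without both Control female arrays, an alternative chosen after seeing the data, 2 genes passed for sex on the Western diet. Pdk4 for sex on the Western diet ranged from -0.18 to 1.2. Signs changed for several members and other genes. Median scaling, with its shift, gave 0.2 for Pdk2, 0.13 for Pdp1, 0.32 for Pdp2, 0.29 for Pdhb, 0.33 for Pdhx, 0.11 for Pklr, 0.03 for Pcx, 0.21 for Dlst, 0.19 for Ogdh, 0.31 for Bckdha and 0.09 for Ppard. Quantile normalization gave 0.31 for Pck2. Within slide 1 the values were 0.13 for Pdk2, -0.08 for Pdha1, -0.13 for Dld, -0.1 for Lipt1, 0.0 for Bckdha, -0.11 for Ces1g and -0.18 for Scd1, and within slide 3 -0.24 for Dlat, -0.18 for Mpc2, -0.05 for Glrx5 and -0.08 for Cd36. Over arrays left out in turn the ranges were -0.09 to 0.31 for Pdk1, -0.55 to 0.16 for Pdk2, -0.19 to 0.03 for Pdp2, -0.07 to 0.23 for Pdha1, -0.03 to 0.13 for Dlat, -0.04 to 0.08 for Dld, -0.25 to 0.08 for Bckdha and -1.08 to 0.0 for Foxo3. The cause of these moves was not tested. Probes near background limit Pdp2's second probe, Foxo3, Pck2 and Lipt1.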
